A study of Mus musculus with 12 samples.

Results

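The peaks of the histone marks H3K79me1 and H3K79me2 were followed over 2 mouse genes: Mllt10, which encodes AF10, and Dot1l, which encodes the methyltransferase that writes both marks. The genes were chosen by name, as the floxed gene and the gene of its enzyme partner, and their peaks by position. Every peak that overlapped chr2:17977000-18134000 (Mllt10, 157 kb) or chr10:80218000-80258500 (Dot1l, 40.5 kb) in the mm9 build was kept. These were 599 of the 933917 peaks in the 8 deposited lists, 488 at Mllt10 and 111 at Dot1l. The covered share, used throughout, is the percentage of such a gene window that lies inside peaks of one list.

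The cells were mouse embryonic fibroblasts (MEFs) of the genotype AF10 fl/fl, OSKM, rtTA, so every group carried floxed AF10 alleles and reprogramming factors that doxycycline switches on. Controls received an empty adenovirus (Ad5-CMV-Empty). The Cre groups, labelled AF10 -/-, received a virus with Cre recombinase (Ad5-CMV-Cre), which cuts out sequence between loxP sites. Doxycycline at 2 µg/mL began 2 days after the virus, and all cells were taken on day 4 of reprogramming. Each mark had 2 control and 2 Cre libraries, numbered as in the labels. The labels do not say which exons lie between the loxP sites or what share of cells was recombined, and the cells grew on DR4 feeder MEFs. Chromatin of these feeders may have entered the libraries, and its part in the values was not tested. Nothing in the labels says that the libraries came from separate cultures, so the p-values measure the spread between libraries, which may be technical.

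DOT1L places methyl groups on lysine 79 of histone H3, a residue on the face of the nucleosome core rather than on its tail. The marks lie over transcribed genes, and H3K79me2 is typically densest over the first part of the gene body. AF10 binds DOT1L and helps it to reach the higher methylation states. In leukaemia, fusions of MLL with AF10 bring DOT1L to genes that then stay active. Mllt10 and Dot1l can thus carry marks that their own protein products help to place.

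The sequences just before the annotated starts are printed because the peaks of both genes lay mainly on the start side. They come from RefSeq (GRCm38.p6), which gives 3 start regions for Mllt10 and 1 for Dot1l, each of 250 bases on the plus strand. CG dinucleotides, the sites of DNA methylation, are in capitals. Shown are the first and the third (inner) Mllt10 region (chr2:18054987-18055236 and chr2:18064335-18064584) and the Dot1l region (chr10:80754953-80755202).
Mllt10, first: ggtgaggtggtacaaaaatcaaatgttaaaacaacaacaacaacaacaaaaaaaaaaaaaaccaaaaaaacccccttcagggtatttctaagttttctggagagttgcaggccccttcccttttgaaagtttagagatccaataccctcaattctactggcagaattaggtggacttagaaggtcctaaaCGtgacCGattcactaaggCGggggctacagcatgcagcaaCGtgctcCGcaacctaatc
Mllt10, inner: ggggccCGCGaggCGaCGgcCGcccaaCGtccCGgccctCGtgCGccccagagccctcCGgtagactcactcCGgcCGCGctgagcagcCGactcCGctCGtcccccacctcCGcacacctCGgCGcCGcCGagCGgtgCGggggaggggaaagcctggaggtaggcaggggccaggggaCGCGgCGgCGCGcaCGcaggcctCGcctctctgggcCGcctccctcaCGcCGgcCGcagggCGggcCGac
Dot1l: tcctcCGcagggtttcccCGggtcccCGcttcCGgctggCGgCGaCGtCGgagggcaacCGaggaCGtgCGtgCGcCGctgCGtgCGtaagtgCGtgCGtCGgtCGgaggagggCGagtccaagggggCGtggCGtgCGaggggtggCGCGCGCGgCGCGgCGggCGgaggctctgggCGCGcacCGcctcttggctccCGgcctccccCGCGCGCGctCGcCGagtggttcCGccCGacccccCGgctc
The first Mllt10 region held 5 CG and was 42.4% G or C, and the second, 0.491 kb further on, held 4. The inner one, 9.35 kb after the first, held 36 CG and was 79.2% G or C. The Dot1l region held 44 CG and was 78.4% G or C. Across 32851 promoters of the same length, 92.1% held a CG and the median was 6. The inner Mllt10 region had more CG than 97.4% of them and the Dot1l region more than 99.5%. Fewer CG than in the first and the second Mllt10 region were found in 44.4% and 37.8% of promoters, so these regions lay near the middle. Peaks are in mm9, so the regions are not placed on them.

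The libraries differed in how much was called. H3K79me1 Cre 2 covered 0.0748% of the autosomes, against 2.16% to 4.76% in the other H3K79me1 libraries. H3K79me2 control 1 covered 0.637%, against 1.92% to 2.83% in the other H3K79me2 libraries. Both stand apart, and the differences in covered share, in the ratio of the genes and in the rear-to-front ratio are given with and without them. No peak at either gene reached a false discovery rate of 0.05 in the authors' own q-values. The share of all listed peaks that did so is not given here, so this is not read as particular to these genes. Whether Mllt10 RNA or protein was lost was not measured by these lists, so the label of the Cre libraries was not checked. Fibroblast marker genes were likewise not checked, since no mm9 gene positions were used here.

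Mllt10, the floxed gene, carried fewer H3K79me1 bases in both Cre libraries than in either control. Peaks covered 46.5% and 28.5% of it in controls 1 and 2, and 16.5% and 0.473% in Cre 1 and 2. The lower control lay above the higher Cre library, so the groups did not overlap. The same order was found in 47.8% of 5181 autosomal windows of the same length, and the opposite order in 0.0386%. In length this was 73.0 and 44.7 kb of the gene in the controls, 26.0 and 0.742 kb after Cre. Control lists 1 and 2 held 90 and 118 H3K79me1 peaks there, and Cre lists 1 and 2 held 66 and 7.

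**Figure D1:**
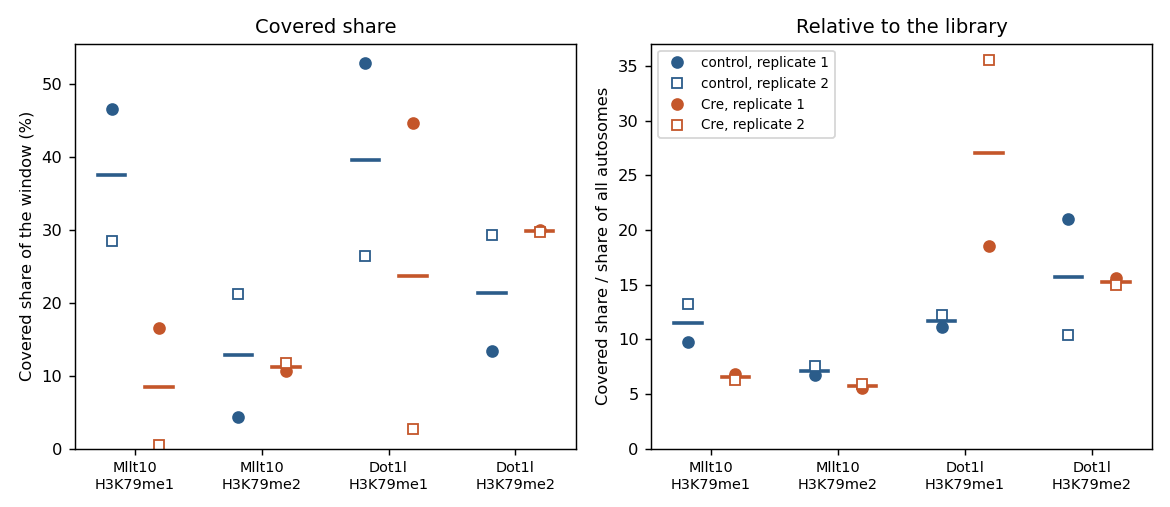
Left, covered share of each gene window in percent; right, that share divided by the covered share of all autosomes in the same library. Each point is a library (circles replicate 1, squares replicate 2; blue control, orange Cre) and each bar a group mean; for Mllt10 the Cre points lie below the controls at the left in H3K79me1 and at the right in both marks.

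The group means were 37.5% ± 12.7 (SD, n = 2) and 8.50% ± 11.4 (SD, n = 2), a difference of -29.0 percentage points. The exact permutation p (two-sided) was 0.333, the smallest that 2 libraries against 2 can give. In limma over those windows, the difference had a standard error of 23.8 points and a Benjamini-Hochberg adjusted p of 0.581. At an adjusted p under 0.05, limma called 0 windows (0%) for either mark at either window length. At an unadjusted p under 0.05 it had 1 H3K79me1 window of each length and 0 H3K79me2 windows. With standard errors this large, the lack of calls does not show that the windows did not differ. A block by replicate number changed the H3K79me1 calls, as given at the end, but the labels do not state such pairs. Without Cre 2 the difference was -21.0 points, and without control 1 it was -20.0 points. Among peaks with a -log10 p of at least 2 it was -0.680 points, as that filter removes most of the covered length. With the same number of peaks taken from each H3K79me1 list it was -1.04 points.

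Lower H3K79me1 cover after Cre was thus common among the windows, whose median difference was -5.24 points. In 0.154% of them the difference was more negative than at Mllt10. A drop in points cannot exceed the control cover, which was high at Mllt10. Mllt10 ranked high in cover in every library: 99.5% and 99.9% of the same-length windows held less H3K79me1 in controls 1 and 2, and 96.7% and 95.2% in Cre 1 and 2. For H3K79me2 its rank was 94.3% to 98.3%, and Dot1l ranked between 97.9% and 99.6% among windows of its own length over the 8 libraries.

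H3K79me2 at Mllt10 differed more between the controls than between the groups. Covered shares were 4.32% and 21.3% in controls 1 and 2, and 10.6% and 11.7% in Cre 1 and 2. Both Cre values thus lay between the controls. The means were 12.8% ± 11.97 (SD, n = 2) and 11.2% ± 0.749 (SD, n = 2), and the difference of -1.61 points had an exact permutation p of 1 and a limma adjusted p of 1 (SE 8.01). Without control 1 the difference was -10.1 points, and without control 2 it was 6.86 points. The direction therefore depended on which control was kept. Both Cre libraries were below both controls in 0.207% of the windows and above both in 4.53%.

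Dot1l, which carries no floxed allele, kept broad H3K79me1 in one Cre library and little in the other. Covered shares were 52.9% and 26.4% in controls 1 and 2, 44.6% in Cre 1 and 2.65% in Cre 2. The groups overlapped, since Cre 1 lay between the controls. The means were 39.6% ± 18.7 and 23.6% ± 29.7 (SD, n = 2 each), a difference of -16.0 points with an exact permutation p of 0.667 and a limma adjusted p of 0.705 (SE 31.3). Without Cre 2 the difference was 4.97 points. Among windows as long as Dot1l, both Cre libraries lay below both controls in 47.7% and above both in 0.0894%.

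H3K79me2 at Dot1l was slightly higher in the Cre libraries than in the higher control. Covered shares were 13.4% and 29.3% in controls 1 and 2, and 30.0% and 29.7% in Cre 1 and 2. The groups did not overlap, but control 2 lay less than 1 point under the Cre libraries, and control 1 held the gap. The difference was 8.53 points (21.3% ± 11.3 against 29.9% ± 0.225, SD, n = 2 each), with an exact permutation p of 0.333 and a limma adjusted p of 1 (SE 17.0). Without control 1 it was 0.557 points, and without control 2 it was 16.5 points. Both Cre libraries lay above both controls in 9.39% of windows of this length and below both in 1.06%.

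Dividing each covered share by that of the whole autosomal genome in the same library gives an enrichment. For Mllt10 H3K79me1 it was 9.76 and 13.2 in the controls, against 6.86 and 6.32 after Cre. For Mllt10 H3K79me2 it was 6.78 and 7.52, against 5.54 and 5.88. On this scale, with no pseudocount (chosen after seeing the data), both Cre libraries lay below both controls in each mark. With 0.5 points added to both shares, the H3K79me2 groups overlapped, at log2 values of 2.08 and 2.71 in the controls and 2.20 and 2.29 in Cre 1 and 2. Without a pseudocount, the same order held for H3K79me1 in 35.9%, for H3K79me2 in 10.4% and for both marks at once in 4.94% of the windows of this length. Dot1l H3K79me1 was 11.1 and 12.2 in the controls, against 18.5 and 35.5 after Cre, an order seen in 12.2% of windows, with the opposite order in 38.2%. Its log2 difference was 1.14 without a pseudocount but -0.13 with 0.5 points added, an amount above the whole autosomal cover of Cre 2 (0.0748%). Dot1l H3K79me2 was 21.0 and 10.4, against 15.6 and 14.9, and the groups overlapped. Among windows of Dot1l length, 5.06% were below in both marks at once.

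The genes were then set against each other within each library, where both were called together. Mllt10 had a lower covered share than Dot1l in 7 of 8 libraries, the exception being H3K79me1 control 2. The mean difference was -11.1 ± 9.95 points (SD, n = 8; exact sign-flip permutation p = 0.0156, two-sided). Some lists of the different marks carry the same tag in their peak names, so the 8 libraries may not be independent. Within H3K79me1 the exact permutation p was 0.25, and within H3K79me2 it was 0.125, the smallest that 4 libraries can give. It was -12.4 points without H3K79me1 Cre 2 and -11.4 without H3K79me2 control 1. For the first 40.5 kb of Mllt10 alone, a stretch as long as Dot1l, it was -0.890 points and lower in 5 of 8 libraries (exact permutation p = 0.781). The ratio of Mllt10 to Dot1l was 0.880 and 1.08 in the H3K79me1 controls, against 0.371 and 0.178 after Cre. For H3K79me2 it was 0.323 and 0.725 in the controls, against 0.355 and 0.394 after Cre. The H3K79me1 ratios of the Cre libraries were all below those of the controls, while the H3K79me2 ratios overlapped.

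**Figure D2:**
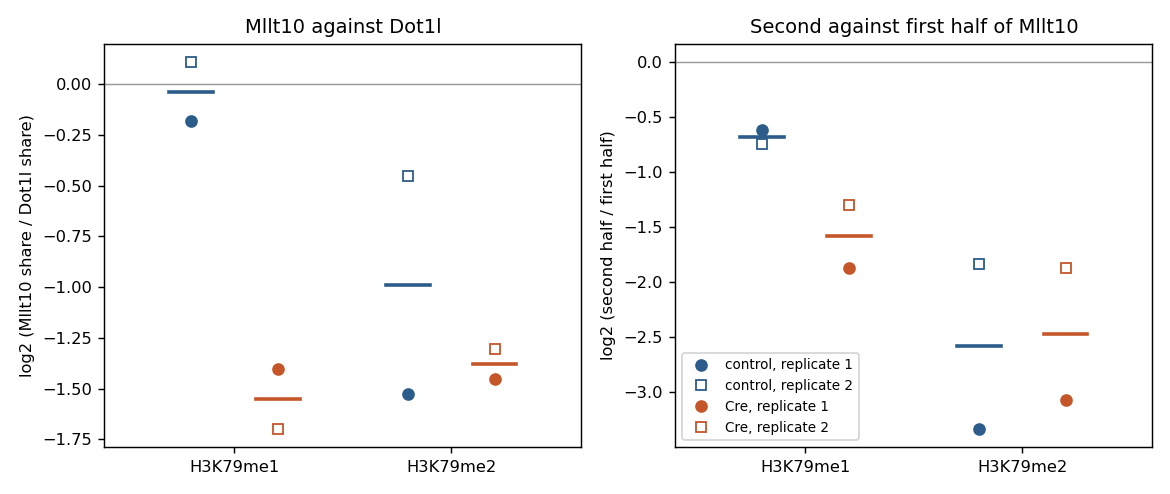
Left, log2 ratio of the covered share of Mllt10 to that of Dot1l; right, log2 ratio of the rear to the front 78.5 kb of Mllt10; 0.5 percentage points were added to each share. Points are libraries and bars group means (blue control, orange Cre); in both panels the H3K79me1 Cre points lie below the controls and the H3K79me2 points overlap.

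As a log2 ratio with 0.5 points added, the mean was -0.04 ± 0.20 in the H3K79me1 controls and -1.55 ± 0.21 after Cre, a difference of -1.51 (SD, n = 2 each; exact permutation p = 0.333, the smallest possible). Without Cre 2 this was -1.37. For H3K79me2 it was -0.99 ± 0.76 and -1.38 ± 0.10, a difference of -0.39 (exact permutation p = 1). This difference was -0.93 without control 1 and 0.15 without control 2, so its direction depended on which control was kept. Over both marks the difference was -0.95 (exact permutation p = 0.167, smallest possible 0.0556). Among peaks with a -log10 p of at least 2 the H3K79me1 difference was 0.79. Cre 1 had no such peak at either gene, so its ratio is set by the 0.5 points added and no direction is read.

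Cover was densest toward the start of both genes, with differences in detail. In Mllt10 the first of 4 equal stretches (39.25 kb) was the most densely covered in every list but H3K79me2 control 1. There it was covered by 7.76%, against 8.78% of the next stretch. In Dot1l the first 10.1 kb were the most densely covered of 4 equal stretches in all 8 lists. They were covered by 53.0% and 87.9% in H3K79me2 controls 1 and 2, and by 100% and 95.4% in Cre 1 and 2. Between 10 and 2.5 kb before the window, H3K79me2 Cre 2 alone had a peak, so the cover began sharply. H3K79me1 covered 77.2% and 39.9% of the first 10.1 kb in the controls, 97.7% in Cre 1 and 10.6% in Cre 2. The widest H3K79me2 peak, of Cre 1, ran over 80217945 to 80228260 (10316 bp), and the second, of Cre 2, over 80220824 to 80227889 (7066 bp). The widest H3K79me1 peak was that of Cre 1, 80218232 to 80229765 (11534 bp), followed by 80221456 to 80229742 of control 1 (8287 bp). The widest peak of each mark at Dot1l thus came from a Cre library.

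**Figure D3:**
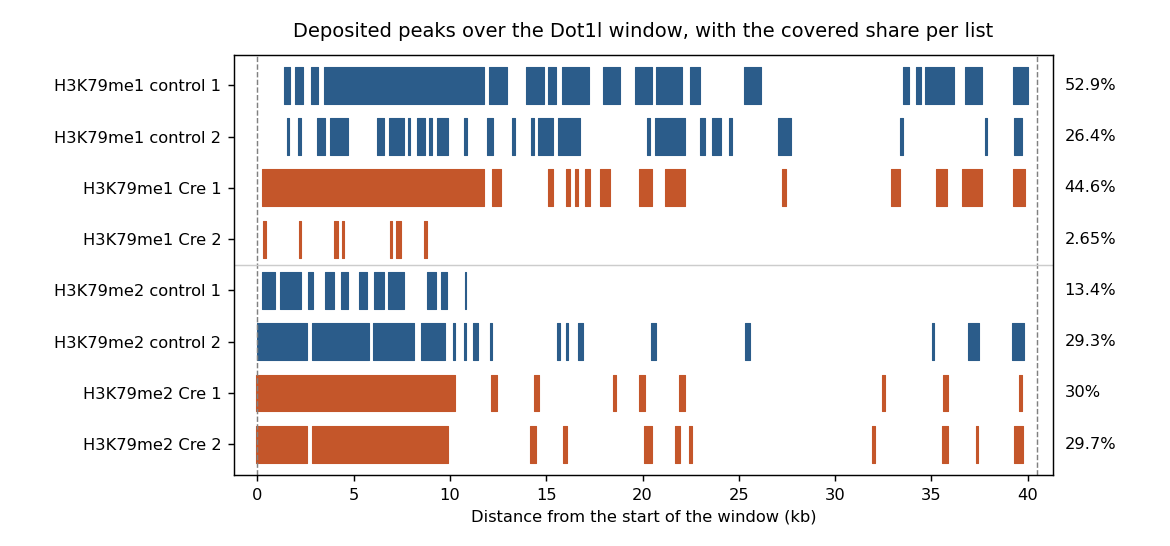
Deposited peaks over Dot1l by distance from the window start (kb), 1 row per list, with the covered share at the right; blue is control and orange Cre. Peaks crowd at the left of every row, and H3K79me1 Cre 2 and H3K79me2 control 1 have none in the right part.

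H3K79me2 profiles in 17 bins of 2.5 kb correlated between libraries with Pearson r of 0.90 to 0.97, a description only, since neighbouring bins share peaks. In Dot1l 4 stretches lay in peaks of all 8 lists, at 80225214 to 80225440 (227 bp), 80224869 to 80224981 (113 bp), 80220145 to 80220252 (108 bp) and 80222394 to 80222487 (94 bp). All 4 lay in the first 10 kb. H3K79me2 covered 10 stretches in all 4 lists, 5.08 kb in all, the longest being 80219165 to 80220252 (1088 bp). Of the bases covered in both H3K79me2 controls, 99.0% and 98.9% were covered in Cre 1 and 2, against 75.1% and 78.7% over the autosomes. For H3K79me1 the shares were 76.9% and 10.3% at Dot1l, against 49.4% and 2.46%.

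In Mllt10 the cover was spread further along the gene, and no base was covered in all 8 lists. The densest H3K79me1 bin of 5 kb lay at 15 to 20 kb in control 1 (90.6%), 95 to 100 kb in control 2 (63.8%), 55 to 60 kb in Cre 1 (47.9%) and 60 to 65 kb in Cre 2 (6.02%). The first H3K79me2 peak began 2.449 and 2.505 kb from the window start in the controls, against 8.43 and 8.50 kb in Cre 1 and 2. Before 8.43 kb, the longest stretch that both controls covered was 150 bp (17979505 to 17979654). Every H3K79me2 list also had peaks in the 20 kb before the window. How often other windows show this order was not counted. H3K79me2 profiles in 32 bins of 5 kb correlated between libraries with Pearson r of 0.64 to 0.88, with the same limit as for Dot1l. The densest H3K79me2 bin lay at 60 to 65 kb in control 1 (16.3%), at 15 to 20 kb in control 2 (70.8%) and at 10 to 15 kb in Cre 1 and 2 (53.8% and 45.0%). H3K79me2 covered the front 78.5 kb by 8.27% (control 1), 33.5% (control 2), 19.4% (Cre 1) and 18.7% (Cre 2), and the rear 78.5 kb by 0.372%, 9.04%, 1.87% and 4.74% in the same order. The front held more than the rear in every library of both marks. H3K79me1 covered the front by 56.4% and 35.8% in the controls, 26.3% and 0.882% after Cre, and the rear by 36.6%, 21.2%, 6.81% and 0.0637%. The rear held 0.650 and 0.594 times the cover of the front in the H3K79me1 controls, and 0.0450 and 0.270 times in the H3K79me2 controls, under different call settings.

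**Figure D4:**
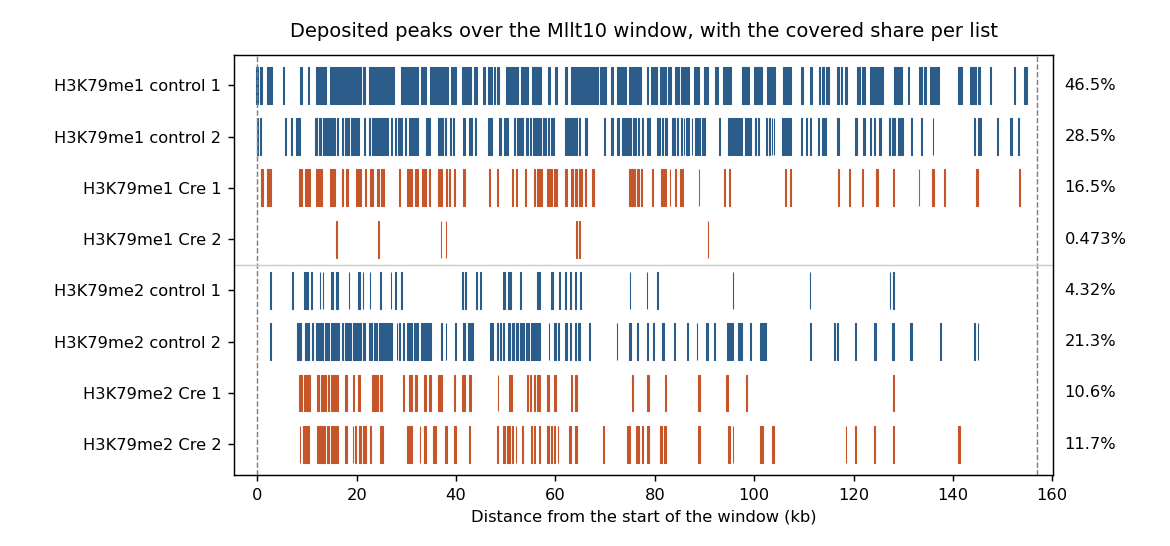
Deposited peaks over Mllt10 by distance from the window start (kb), 1 row per list, with the covered share at the right; blue is control and orange Cre, and a thin outline keeps the shortest peaks visible. Peaks are dense in the front of the gene and sparse toward its end in both H3K79me2 groups, and Cre 2 of H3K79me1 holds 7 short peaks.

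For H3K79me1, the log2 ratio of rear to front differed between Cre and control by -0.91 at Mllt10 and by -1.67 at Dot1l. The groups did not overlap (exact permutation p = 0.333 each, the smallest possible). In what share of autosomal windows this order occurs was not counted. The rear of Dot1l held no peak in H3K79me1 Cre 2 or H3K79me2 control 1, so their ratios are set by the 0.5 points added. Without H3K79me1 Cre 2 the differences were -1.19 at Mllt10 and -0.75 at Dot1l. In H3K79me1 at Mllt10 the libraries gave -0.61 and -0.74 (controls), -1.87 (Cre 1) and -1.29 (Cre 2). The Cre 2 value also depends mainly on the 0.5 points added, since its front and rear shares were 0.882% and 0.0637%. Its ratio with nothing added was 0.0723. The H3K79me2 differences were 0.11 and 0.99, where the groups overlapped (exact permutation p = 1 each). Without H3K79me2 control 1 they were -0.64 at Mllt10 and -0.72 at Dot1l, and without H3K79me2 Cre 2 the Mllt10 value was -0.49, so the direction depended on single libraries. The front and rear were set after the profiles had been seen. The stretches common to all 4 H3K79me2 lists numbered 12 and covered 1.89 kb, the longest 17986488 to 17987164 (677 bp). The H3K79me1 lists shared 4 stretches, 0.549 kb together, the longest 18001209 to 18001449 (241 bp). Another stretch, 17991913 to 17992223 (311 bp), was covered in every list but H3K79me1 Cre 2. Of the 27.7 kb covered in both H3K79me1 controls, Cre 1 covered 40.2% and Cre 2 covered 2.31%, against 49.4% and 2.46% over the autosomes. Of the 4.14 kb covered in both H3K79me2 controls, Cre 1 and 2 covered 58.1% and 67.1%, below the 75.1% and 78.7% over the autosomes.

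The strength of single peaks is given by the authors' fold enrichment over background, which describes peaks within a list. The median fold of the Mllt10 peaks was 1.83 and 1.93 in the H3K79me1 controls and 1.74 and 1.99 in Cre 1 and 2, close to the medians of the whole lists (1.75, 1.89, 1.74 and 1.90). The strongest peak of each H3K79me1 list at Mllt10, by -log10 p, lay 58.4 and 30.5 kb from the window start in controls 1 and 2. In Cre 1 and 2 it lay at 76.4 and 24.2 kb. Peaks of Cre 2 tied, since its highest -log10 p there equalled its median (2.25), and the widest tied peak is given. In H3K79me2 the strongest peak lay at 127.2 and 78.4 kb in the controls, 9.32 kb in Cre 1 and 127.9 kb in Cre 2. The strongest Mllt10 peaks were thus scattered along the gene. At Dot1l the strongest H3K79me2 peak of Cre 1 was its 10316 bp domain (fold 2.59), and those of controls 1 and 2 lay at 6.79 and 6.01 kb, whereas that of Cre 2 lay at 37.3 kb (80255312 to 80255438, fold 2.49). All 4 of the strongest H3K79me1 peaks at Dot1l began in the first 10 kb. The 3 widest H3K79me1 peaks at Mllt10, all of control 1, were 17994464 to 17997871 (3408 bp), 18006950 to 18009384 (2435 bp) and 18051820 to 18054235 (2416 bp). The 3 widest H3K79me2 peaks there, all of control 2, were 18032011 to 18033852 (1842 bp), 17991821 to 17993435 (1615 bp) and 17996233 to 17997795 (1563 bp).

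The bases of each mark that lay inside peaks of the other were counted. At Mllt10, 70.3% and 83.6% of the H3K79me2 bases of controls 1 and 2 lay inside H3K79me1 peaks of either control, which together covered 57.3% of the gene. After Cre, 60.8% and 43.1% lay inside H3K79me1 peaks of either Cre library, which covered 16.7%. At Dot1l these shares were 75.9% and 82.4% in the controls, where H3K79me1 covered 60.0%, and 92.7% and 91.2% after Cre, where it covered 44.6%. In the other direction, 32.2% and 41.1% of the H3K79me1 bases of controls 1 and 2 lay inside H3K79me2 peaks of either control at Mllt10, which covered 22.9% of the gene, and 44.5% and 44.1% did so at Dot1l, where they covered 30.0%. After Cre, 49.9% and 54.4% did so at Mllt10 (cover 17.2%), and 68.5% and 100% at Dot1l (cover 34.5%). Each share was above the cover of the other mark in the same gene and group. H3K79me1 was the broader call in the controls of both genes, so the shares of the 2 directions were not compared.

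Stretches with peaks in the controls and none after Cre were counted at the floxed gene and at Dot1l. In H3K79me1, 2 of the 31 bins of 5 kb with a peak in both controls had none in either Cre library (6.45%), against 22% of 52743 such bins over the autosomes. In H3K79me2, 2 of 18 had none (11.1%), against 21.6% of 41951. Both shares at Mllt10 were below those of the autosomes under this rule. Where a bin counted as covered only from 5% of its length, they were 9 of 29 and 0 of 9, and no autosomal share was counted. Dot1l had 0 of 8 for H3K79me1 and 0 of 3 for H3K79me2. The sparse libraries moved these counts. Taken alone, H3K79me1 Cre 1 left 2 of the 31 Mllt10 bins empty (22.6% over the autosomes), and Cre 2 left 26 empty (84%) and 6 of 8 at Dot1l. H3K79me2 Cre 1 alone left 4 of 18 empty (45.2% over the autosomes) and Cre 2 left 2 (23.4%). Without H3K79me2 control 1 it was 5 of 29 at Mllt10 and 1 of 7 at Dot1l. Without H3K79me1 control 2 it was 1 of 9 at Dot1l. The Mllt10 bin 110 to 115 kb from the window start was empty in all 4 Cre lists and held peaks in all 4 control lists. It was 1 of 18 Mllt10 bins with peaks in all 4 control lists (5.56%), against 1.97% of 24454 such autosomal bins and 0 of 3 at Dot1l.

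**Figure D5:**
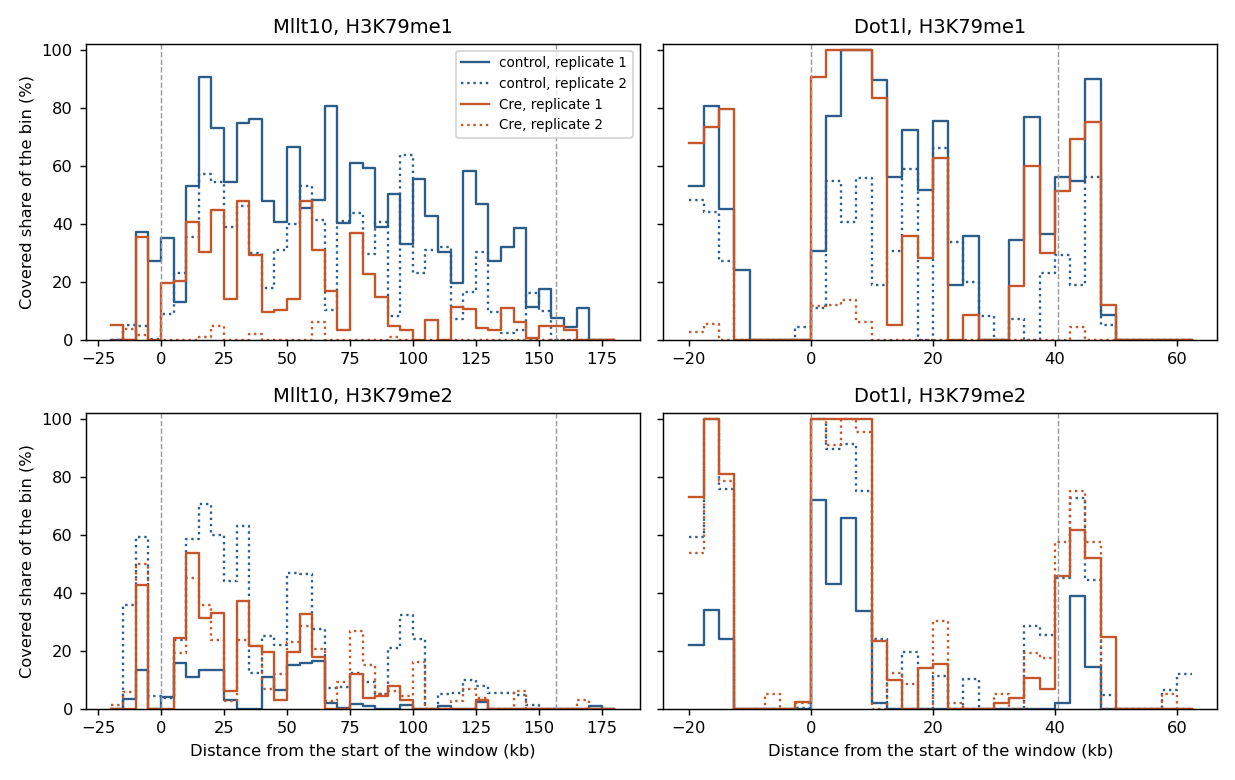
Covered share in bins along both windows and the 20 kb on each side (percent against distance from the window start in kb), 1 line per library, by gene and mark. Solid lines are replicate 1 and dotted lines replicate 2 (blue control, orange Cre). Cover at Dot1l begins abruptly at 0, while at Mllt10 it is spread along the gene and the Cre lines are at 0 from 110 to 115 kb.

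The longest stretch of Mllt10 without a peak in any Cre list was 18084335 to 18093775, 9.44 kb long and 107.3 to 116.8 kb from the window start. Peaks covered 22.2% and 19.5% of it in H3K79me1 controls 1 and 2, and 0.540% and 4.50% in the H3K79me2 controls. It was picked as the longest such stretch, so no share of other regions is set beside it. A second stretch, 17979727 to 17985425 (5.70 kb), also had peaks in all 4 control lists. The controls had stretches of Mllt10 without any peak of up to 3.44 kb. Whether either stretch matches the floxed exons was not tested, since no position of the loxP sites is given.

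The regions next to the genes carried peaks too. RefSeq (GRCm38.p6) places Skida1 before Mllt10 and Commd3 and Bmi1 after it, and Dnajc1 overlaps its end. The 20 kb after Mllt10 were covered by at most 0.79% in H3K79me2 and 5.70% in H3K79me1. H3K79me2 covered 4.205% and 24.8% of the 20 kb before it in controls 1 and 2, and 10.6% and 14.2% in Cre 1 and 2. Dot1l lies between Ap3d1 and Plekhj1. The 20 kb before it held 10.0% and 29.5% H3K79me2 in the controls, against 32.0% and 29.9% after Cre, the same order of libraries as within the gene. Over 8 libraries, the windows most like Mllt10 in cover were 55421354 to 55578354 of chromosome 1, 28417182 to 28574182 of chromosome 6 and 21823140 to 21980140 of chromosome 14, at Euclidean distances of 8.30, 8.51 and 8.83 points. Those most like Dot1l were 132721778 to 132762278 of chromosome 4, 77073404 to 77113904 of chromosome 10 and 116399875 to 116440375 of chromosome 11, at 7.52, 8.65 and 9.09 points.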

How the data were processed

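Peak lists of 8 ChIP-seq libraries (H3K79me1 and H3K79me2, 2 control and 2 Cre each) were used, grouped by their titles, and 4 libraries for RNA polymerase II were not analysed here. Per the labels' protocols, 7.1 µg of chromatin in fragments of 200 to 400 bp was mixed with 133 ng of human 293T chromatin (a kidney cell line) added as the spike-in. MACS2, Bowtie2, HOMER, bedtools, SAMtools 1.2 and deepTools are listed in the submitters' processing notes, beside the builds hg19 and mm9. In the deposited lists, peak names record broad calling per library against an input, at a p setting of 0.001 (H3K79me1) or 1e-04 (H3K79me2), so levels were not compared between the marks. The smallest listed -log10 p was 1.00 to 1.03 in the 8 lists, so listed peaks can be weaker than these settings. Each deposited list gives a fold enrichment (ratio), a score, a −log10 p-value and a −log10 q-value; the score was 10 times the last, rounded down, in every peak. No spike-in scaling is recorded, and read depth is unknown, so precision was judged from the spread between libraries.

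Positions are in mm9, from base 1. Each autosome was cut into windows as long as each gene, with the gene as 1 window, since H3K79me1 control 1 lists 0 peaks on chromosome X. Windows with mean cover of 1% or more entered limma (trend, Benjamini-Hochberg at 0.05). Group differences were tested by exact permutation. The limma step was tested on simulated data. Widest peaks, shared segments and the 3 nearest windows were named by rule. Other peak filters, windows, scales, replicate blocks and left-out libraries were tried. The genes, windows and lists were chosen with earlier results of these data known. Tools were limma 3.58.1 in R 4.3.3, and Python 3.11.15 with SciPy 1.17.1, NumPy 2.4.6, pandas 2.3.3 and Matplotlib 3.10.9.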

Additional observations from a re-analysis of the deposited data

How the results depend on the processing

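Of 196 alternatives, 156 kept the direction and the side of the threshold, or stayed within 1.5 times for a count. In the exact permutation tests of Cre against control, the smallest possible p lies above the threshold. Their side was thus fixed in advance, and only their direction could change. The tally therefore does not measure how stable the p-values of these tests were. The cause of the changes below was not tested. The Mllt10 H3K79me1 difference kept its direction but was -1.04 points at equal numbers of peaks. The Mllt10 H3K79me2 difference was 2.496 points at equal numbers of peaks and 1.11 in the first 20 kb, and with a library left out it ran from -10.1 to 6.86. The Dot1l H3K79me1 difference was 11.5 points at equal numbers of peaks, 1.14 as a log2 enrichment without a pseudocount (chosen after seeing the data), and -37.0 to 4.97 with a library left out. The Dot1l H3K79me2 difference was -0.864 in peaks per 10 kb, 0.120 points with peaks merged within 1 kb, and 0.557 to 16.5 with a library left out. Mllt10 minus Dot1l was -0.890 points in the first 40.5 kb, -8.63 in H3K79me1 alone and -13.6 in H3K79me2 alone. The rear-to-front differences without each library were added after seeing the data. The log2 ratio of the genes was 0.79 for H3K79me1 at a -log10 p of at least 2, where Cre 1 had no peak at either gene. It was -0.93 to 0.15 for H3K79me2 with a library left out. At a -log10 p of at least 3, only Mllt10 H3K79me2 gave a value.

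Without a minimum cover, limma called 4 (Mllt10 length) and 29 (Dot1l length) H3K79me2 windows. With a library left out it called 0 to 3544 H3K79me2 windows of Mllt10 length, 0 to 3484 H3K79me1 and 0 to 5253 H3K79me2 windows of Dot1l length. The count of bins with peaks in both controls and neither Cre library changed with the rule. For Mllt10 H3K79me1 it was 37 of 105 (1 kb), 0 of 16 (10 kb) and 9 of 29 (at least 5% covered). When a library was left out it ran from 2 to 26. For Mllt10 H3K79me2 it was 6 of 37, 0 of 11 and 0 of 9, and 2 to 5 with a library left out. Dot1l H3K79me1 had 2 of 21 (1 kb) and 1 of 7 (at least 5% covered), and 0 to 6 with a library left out. Dot1l H3K79me2 had 0 to 1. No autosomal share was counted for the other bin rules.

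The labels do not say that replicate numbers pair libraries, but same-numbered control and Cre libraries of a mark share a tag in their peak names, whose meaning is not given. Same-numbered libraries deviated together in H3K79me1 (r = 0.70 over windows) and oppositely in H3K79me2 (r = -0.52). With the replicate block, limma gave -29.0 points for Mllt10 H3K79me1 (adjusted p = 0.000281) and -16.0 points for Dot1l H3K79me1 (adjusted p = 0.0938). In H3K79me1 it called 3953 of 5181 windows of Mllt10 length and 6383 of 13429 of Dot1l length, so such calls were common. In H3K79me2 it called 0 of 4353 and 0 of 10697. The crossed block, added after seeing the data, also called 0 in H3K79me2.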
